A study of Mus musculus with 18 samples.

Results

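The genes described here are the SLAM family receptors and adaptors of mouse NK cells. They comprise 6 receptors (Slamf6, Slamf7, Cd244a, Cd48, Cd84 and Ly9) and 2 adaptors (Sh2d1a and Sh2d1b1), which 8 of the 41388 genes listed in the count tables represent. They were chosen by name, as a gene family, with earlier results of these data known. RNA was sequenced from splenic NK cells of C57BL/6 mice, which were split by surface CD27 and CD11b. Cells with CD27 and no CD11b were stage II, those with both proteins stage III, and those with CD11b and no CD27 stage IV. KO cells came from ILC-EomesΔ/Δ mice, which carry Ncr1-iCreERT2 KI/WT, the Rosa26YFPLSL reporter and Eomesfl/fl and received tamoxifen. WT cells came from mice labelled WT with no further allele named. There were 3 libraries for each genotype at each stage, so 6 groups and 18 libraries, from mice of 8 to 12 weeks treated for 3 days in 3 experiments. The study set out to find genes that depend on Eomes, a T-box transcription factor, at each step of NK cell maturation. Cre is expressed from the Ncr1 gene, so deletion is limited to cells that express Ncr1. Splenocytes were pooled over an unstated number of mice. The treatment text stands on WT and KO samples alike, and whether WT mice were given tamoxifen or carried Cre is not stated, so these cannot be told apart from the deletion.

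SLAM family receptors are immunoglobulin-like surface proteins of blood cells, and most of them bind a copy of themselves on the neighbouring cell. CD244 (2B4) instead binds CD48, a lipid-anchored protein that also binds CD2. The tails of the receptors other than CD48 carry tyrosine motifs that bind SAP (encoded by Sh2d1a) or EAT-2 (encoded by Sh2d1b1), small adaptors built around a single SH2 domain. SAP brings the kinase FYN to the receptor and EAT-2 couples it to phospholipase C gamma, and in NK cells these adaptors set whether a SLAM receptor activates or inhibits killing.

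Of the 8 genes, 7 were listed under their own Ensembl ID. The 6 receptor genes lie within 384.7 kb of chromosome 1 (GRCm38) in the order Cd244a, Ly9, Slamf7, Cd48, Cd84 and Slamf6. In the files, Cd244a (ENSMUSG00000004709) spans chr1:171559193-171585318 and Slamf6 (ENSMUSG00000015314) spans chr1:171917537-171943868, both on the plus strand. Between them lie Cd48 (ENSMUSG00000015355, chr1:171682009-171705258) and Cd84 (ENSMUSG00000038147, chr1:171839697-171890718) on the plus strand. Ly9 (ENSMUSG00000004707, chr1:171588624-171607410) and Slamf7 (ENSMUSG00000038179, chr1:171634925-171649007) lie there on the minus strand, and none of the 6 listed spans overlaps another. In GENCODE M21 the Cd244a gene extends to position 171609746 and covers the Ly9 span on the opposite strand, so with strandedness not given, reads of the Ly9 span may come from either gene. Sh2d1a (ENSMUSG00000005696) lies on the X chromosome at chrX:42502453-42529330, plus strand. Sh2d1b1 had no row of its own. The listed feature ENSMUSG00000073494, whose symbol is Sh2d1b2, spans chr1:170232749-170285662 and holds 1381 of its 3923 exon bases inside the Sh2d1b1 gene. It therefore counts reads of both EAT-2 genes, and its values are given as Sh2d1b1/Sh2d1b2. The coding sequences of these neighbours (396 bases each, GENCODE M21) are identical at 359 positions, or 90.7%. Their first 120 coding bases do not differ, and their last 120 differ at 18 positions, shown in capitals, so that reads from the start of the coding sequence could not be assigned to either gene.
Sh2d1b1 and Sh2d1b2, coding bases 1 to 120: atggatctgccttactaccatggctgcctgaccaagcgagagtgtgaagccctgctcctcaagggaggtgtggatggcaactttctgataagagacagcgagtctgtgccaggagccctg
Sh2d1b1, coding bases 277 to 396: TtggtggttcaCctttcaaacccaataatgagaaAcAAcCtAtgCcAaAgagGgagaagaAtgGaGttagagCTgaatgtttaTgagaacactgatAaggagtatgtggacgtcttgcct
Sh2d1b2, coding bases 277 to 396: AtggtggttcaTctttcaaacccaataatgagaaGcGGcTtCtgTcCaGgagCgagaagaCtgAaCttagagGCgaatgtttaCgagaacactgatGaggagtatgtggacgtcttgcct

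Promoter sequences (GRCm38.p6, RefSeq, 250 bases before to 50 after the start) were at hand for 6 of the 8 genes. The promoters of Slamf6 and Cd48 are shown because these are the receptors called between stages IV and II in WT cells, in opposite directions. The T-box element AGGTGTGA (or its complement TCACACCT) was found in 419 of 32851 promoters (1.28%) and in none of the 6. Its core GGTGTG was found on either strand in 19% of promoters, and among the 6 in that of Cd48. The Runx site TGTGGT was found in 16.8% of promoters, and among the 6 in those of Cd48, Cd84 and Sh2d1b1. In the Cd48 promoter the core and the Runx site overlap, and the 9 bases that they cover together are in capitals. The Slamf6 promoter holds none of these motifs within the window, so it has no capitals. These matches are descriptions of the letters and were not tied to binding.
Slamf6 promoter, chr1:171917212-171917511, plus strand: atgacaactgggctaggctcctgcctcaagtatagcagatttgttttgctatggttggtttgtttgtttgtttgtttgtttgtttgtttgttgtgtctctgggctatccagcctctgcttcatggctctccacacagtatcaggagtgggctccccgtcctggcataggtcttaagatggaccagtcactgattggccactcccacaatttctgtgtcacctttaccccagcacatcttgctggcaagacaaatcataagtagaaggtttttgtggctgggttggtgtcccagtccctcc
Cd48 promoter, chr1:171681742-171682041, plus strand: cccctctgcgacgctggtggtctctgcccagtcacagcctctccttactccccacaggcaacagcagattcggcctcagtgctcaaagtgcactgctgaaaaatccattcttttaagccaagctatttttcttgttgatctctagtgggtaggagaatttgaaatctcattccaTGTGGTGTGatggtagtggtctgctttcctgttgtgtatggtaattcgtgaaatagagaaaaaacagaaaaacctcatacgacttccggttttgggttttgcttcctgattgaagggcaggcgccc

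Each library held 18684350 to 28365837 counts, and the 8 genes were covered by 23 to 28650 counts per library. Eomes was lower in KO libraries at every stage. It had 55.2 to 159.9 CPM (counts scaled to the library total) in KO libraries and 191 to 287 CPM in WT libraries. Mean CPM was 63.1 in KO and 205 in WT cells at stage II, 150 and 272 at stage III, and 107 and 255 at stage IV. The Eomes RNA left in KO cells thus differed by stage, and its part in differences between stages was not tested. Of 8 NK cell marker genes none was at 0 in any group. Their sums were 10079.5 to 12613 CPM in KO and 14814 to 16633 CPM in WT libraries of stage II. At stage III they were 14703 to 17033 CPM in KO and 21500.5 to 24365 CPM in WT libraries, and at stage IV the sums overlapped. Among these markers, Prf1 and Gzma were called lower in KO cells of stage II by edgeR. KO stage III replicates 1 and 3 stood apart, with 14824 and 16536 genes with counts, against 21454 in replicate 2 of that group. Fits without replicates 1 and 3 leave replicate 2 as the single KO library of stage III. Its spread is then assumed to be that of the other groups. WT stage II replicate 1 had 29859 genes with counts, against 17957 and 18816 in replicates 2 and 3 of its group. KO stage IV replicate 3 had 27912, against 18228 and 20465 in replicates 1 and 2 of its group. WT stage II replicate 1 is also the only WT library of stage II in fits without WT replicates 2 and 3. WT replicate 1 stood apart from WT replicates 2 and 3 at all 3 stages. Xist, an RNA of female cells, was at most 0.636 CPM in WT replicates 2 and 3. It was 5.66 to 45.2 CPM in the other 12 libraries, which include all KO libraries. Sex of the pooled mice and genotype can therefore not be told apart where WT replicates 2 and 3 enter. This also holds for Sh2d1a, which lies on the X chromosome. Ncr1, the gene that holds the Cre knock-in, had 1402 to 2353 CPM in KO libraries and 2111 to 2376 CPM in WT replicate 1, against 3600 to 4076 CPM in WT replicates 2 and 3. Calls between KO and WT cells or between WT stages are given with and without these libraries where the calls rest on them.

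Cd48 was the most abundant of the 7 separable genes per transcript length in every group, and Slamf6 the least. On the scale of deposited RPKM (CPM per kilobase of transcript), Cd48 averaged 686 ± 13.7 in KO and 568 ± 15.3 in WT cells of stage II (SD, n = 3 each). At stage III it averaged 924 ± 184 in KO and 661 ± 24.2 in WT cells, and at stage IV 976 ± 141 in KO and 859 ± 52.4 in WT cells. Among the 14156 genes tested, Cd48 ranked 49 to 100 by mean RPKM in the 6 groups. Slamf7, a self-binding receptor used with EAT-2 in NK cells, came next in 5 of the 6 groups with 181 to 301 RPKM, and Cd244a followed with 123 to 183 RPKM. In WT stage IV the order of this pair was the other way, with 179.5 ± 4.68 RPKM for Cd244a and 176 ± 19.6 RPKM for Slamf7, and the libraries of the pair overlapped there and in WT stage III.

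The middle of the order was not fixed. Cd84, Ly9 and Sh2d1a lay between 14.7 and 71.8 RPKM. Cd84 and Ly9 overlapped in KO stages II, III and IV and in WT stages II and IV, and Sh2d1a overlapped with its neighbour in KO stage III, WT stage III and WT stage IV. In KO stage II, Sh2d1a stood apart below both, at 14.7 ± 1.15 RPKM. Slamf6 had 9.40 ± 1.60 RPKM in KO and 26.9 ± 2.12 RPKM in WT cells of stage II, but 0.812 ± 0.444 RPKM in KO and 1.09 ± 0.248 RPKM in WT cells of stage IV. The plot of levels per length by group shows that span.

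**Figure D1:**
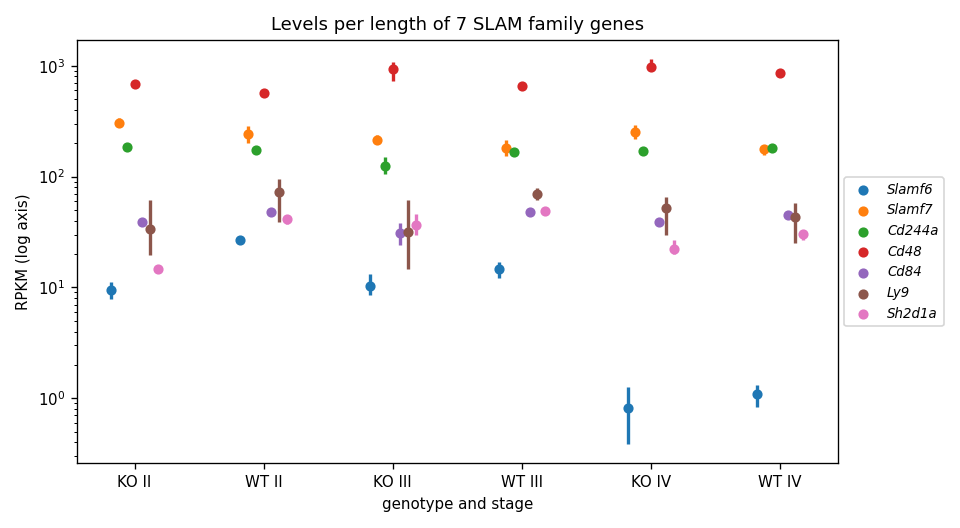
Deposited RPKM (log axis) of the 7 SLAM family genes that have their own row, by genotype and stage, with points for the mean and bars from the lowest to the highest of 3 libraries. Cd48 is on top in all 6 groups (568 to 976 RPKM) and Slamf6 is lowest, near 1 RPKM at stage IV.

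Loss of Eomes went with lower RNA of one receptor and one adaptor at stage II, the least mature of the 3 gates. The receptor was Slamf6 (also Ly108), which binds itself and signals through SAP, and the adaptor was SAP itself, from Sh2d1a. Slamf6 had 19.3, 27.1 and 22.5 CPM in KO libraries, against 64.5, 71.4 and 61.3 CPM in WT libraries. Every KO library was below every WT library. The log2 fold change was -1.52 ± 0.26 (SE), or 2.87-fold lower in KO cells (edgeR's quasi-likelihood test with Benjamini-Hochberg adjustment over 14156 genes, adjusted p = 0.00386). In bulk samples, fewer cells that carry an RNA and less of it per cell cannot be told apart.

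Sh2d1a fell by a like amount. It had 80.6, 87.1 and 74.5 CPM in KO libraries of stage II and 205, 242 and 239.8 CPM in WT libraries, again without overlap. Its log2 fold change was -1.51 ± 0.18 (edgeR, adjusted p = 1.57e-04). No other SLAM family gene passed the test at stage II, so 2 of 8 were called, both lower, where 1.46% of all tested genes were called in either direction and 0.996% were called lower. DESeq2 called 3 of the 8, these and Cd84, where it called 2.59% of all tested genes. Both edgeR calls held in each of 18 fits that left out 1 library. With WT replicates 2 and 3 left out, which leaves 1 WT library per stage whose spread is assumed to be that of the other groups, the log2 fold changes were -1.26 for Slamf6 and -1.12 for Sh2d1a, and neither was called (edgeR, adjusted p = 0.341 for both).

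The other 6 genes did not pass the test at stage II. Cd84, a self-binding receptor, had 256, 238 and 243 CPM in KO and 322, 296 and 288 CPM in WT libraries, which did not overlap but did not pass the test (log2 fold change -0.30 ± 0.10, edgeR adjusted p = 0.218). Cd48 had 801, 814 and 833 CPM in KO and 696, 666 and 663 CPM in WT libraries, and it too did not overlap or pass (log2 fold change 0.27 ± 0.17, edgeR adjusted p = 0.764). For 5 of the 8 genes, 1 higher and 4 lower, the libraries of the genotypes did not overlap at stage II, where 19.6% of all tested genes had no overlap. The 95% interval of the log2 difference was 0.037 to 0.63 for Slamf7, -0.11 to 0.28 for Cd244a and -0.68 to 0.0045 for Sh2d1b1/Sh2d1b2. The median log2 fold change of the 8 genes was -0.32, beside -0.0063 over all tested genes.

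Markers of other cells moved with genotype at this stage. The 8 ILC1 marker genes summed to 1612 to 1956 CPM in KO and 656 to 1266 CPM in WT libraries of stage II, with none at 0 in all 3 libraries of a group. The sum of 1266 CPM was that of WT replicate 1, against 656 and 674 CPM in WT replicates 2 and 3. Cxcr6, 1 of the 8, had 408, 116 and 111 CPM in these libraries. edgeR called 5 of the 8, all higher in KO cells, where 1.46% of all tested genes were called. The 12 T cell marker genes summed to 546 to 854 CPM in KO and 688 to 1034 CPM in WT libraries, and the 10 B cell marker genes to 64.6 to 78.4 CPM in KO and 65.2 to 86.4 CPM in WT libraries, so these sums overlapped. Cd28 made up most of the T cell sum, with a mean of 516 CPM in KO and 558 CPM in WT libraries. Of the 10 T cell markers tested, edgeR called 1, Cd3d, a chain of the T cell receptor complex, which had 48.7, 37.9 and 51.8 CPM in KO and 142, 139 and 119.97 CPM in WT libraries (log2 fold change -1.54 ± 0.23, edgeR adjusted p = 0.00121); with WT replicates 2 and 3 left out it was -1.40 and was not called. Cd3e, another chain of that complex, had 7.97, 9.04 and 13.6 CPM in KO and 9.48, 47.0 and 33.5 CPM in WT libraries, which overlapped (log2 fold change -1.59 ± 0.74, edgeR adjusted p = 0.558). Itgam, the gene of the gate protein CD11b, had 22.3, 26.5 and 17.6 CPM in KO libraries of stage II. In WT libraries it had 61.1, 50.9 and 41.6 CPM, without overlap. Of the 2 gate genes Itgam and Cd27, edgeR called 0 at stage II and DESeq2 called 1. The part of ILC1-marked or T cells, or of the gates, in the lower Slamf6 and Sh2d1a was not tested.

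**Figure D2:**
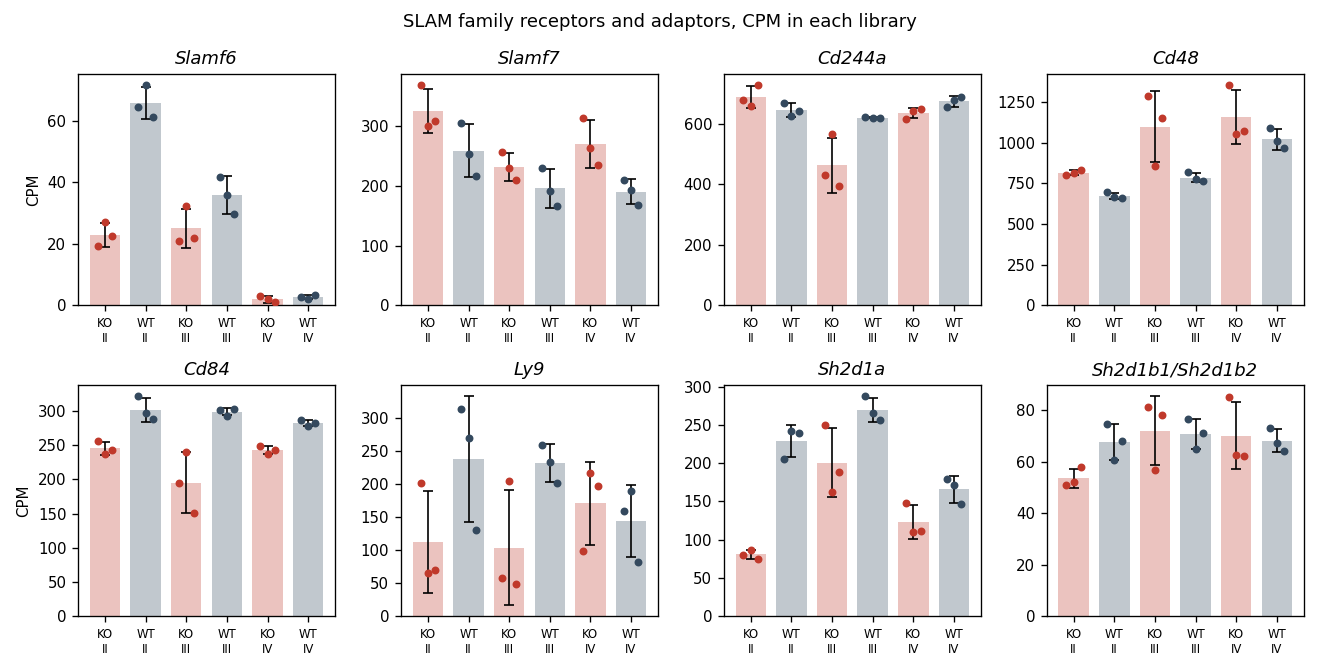
Deposited CPM of the SLAM family genes in each library, with KO left of WT within each stage; bars are means, whiskers SD and points the 3 libraries. Slamf6 and Sh2d1a lie lower in KO than in WT at stage II, Slamf6 is near 0 at stage IV in both genotypes, and Ly9 is scattered within groups.

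At stage III other members of the family passed the test. Cd48 was higher and Cd84 lower in KO cells, and these 2 of the 8 genes were called, where 7.9% of all tested genes were called. Cd48 had 1287, 859 and 1150.2 CPM in KO libraries and 819, 775 and 765 CPM in WT libraries. Cd84 had 195, 239.7 and 151 CPM in KO libraries and 301, 293 and 303 CPM in WT libraries. For both genes the groups did not overlap, and KO replicate 2 lay closest to the WT libraries. The log2 fold change was 0.68 ± 0.17 for Cd48 (edgeR, adjusted p = 0.0264) and -0.47 ± 0.10 for Cd84 (edgeR, adjusted p = 0.0119).

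Both calls rested on few libraries. Leaving out KO replicates 1 and 3, the libraries with few detected genes, leaves replicate 2 as the only KO library of this stage. The log2 fold change was then 0.090 for Cd48 and -0.35 for Cd84, and neither was called. The Cd48 call was also lost without KO replicate 1 (0.57) or 3 (0.52) alone, without WT stage III replicate 1 (0.67), 2 (0.68) or 3 (0.66), and without WT stage IV replicate 2 (0.67). The Cd84 call was lost without WT stage III replicate 2 (-0.47) or 3 (-0.45). With WT replicates 2 and 3 left out the values were 0.67 for Cd48 and -0.43 for Cd84, not called. When KO replicate 2 was left out instead, 6 of the 8 genes were called, and so were 30.6% of the 16318 genes tested in that fit. In that fit the log2 fold change was -1.86 for Ly9 (edgeR, adjusted p = 0.00954) and 0.43 for Sh2d1b1/Sh2d1b2 (edgeR, adjusted p = 0.0207).

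Slamf6 and Sh2d1a, the genes lowered at stage II, did not pass at stage III. Slamf6 had 21.1, 32.2 and 21.7 CPM in KO and 41.8, 35.9 and 29.6 CPM in WT libraries, which overlapped (log2 fold change -0.36 ± 0.26, edgeR adjusted p = 0.362). Sh2d1a had 250.5, 163 and 188 CPM in KO and 288, 265 and 257 CPM in WT libraries, which did not overlap (log2 fold change -0.24 ± 0.18, edgeR adjusted p = 0.382). Cd244a, the receptor for CD48, had 431, 566 and 394 CPM in KO and 622, 621 and 621 CPM in WT libraries. Its groups did not overlap, and its log2 fold change was -0.27 ± 0.10 (edgeR, adjusted p = 0.0921). In all, 4 of the 8 genes had no overlap at stage III, where 19.9% of tested genes had none. The median of the 8 log2 fold changes was -0.26, beside 0.016 over all tested genes.

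Of the 2 gate genes, edgeR called Itgam lower in KO cells at stage III and in the average over stages. Cd27 was not called, with a mean of 336 CPM in KO and 381 CPM in WT cells of stage III. Itgam, which encodes CD11b, had 92.7, 298 and 83.6 CPM in KO and 469, 432 and 389.7 CPM in WT libraries (log2 fold change -1.35 ± 0.32, edgeR adjusted p = 0.0225), lowest in the same KO replicates 1 and 3. Without those it was -0.56, and with WT replicates 2 and 3 left out -1.43, neither called. The 8 ILC1 marker genes summed to 146 to 272 CPM in KO and 48.4 to 61.0 CPM in WT libraries of stage III. edgeR called all 8 higher in KO cells, where 7.9% of all tested genes were called. The 10 B cell marker genes summed to 19.6 to 25.5 CPM in KO and 10.1 to 10.98 CPM in WT libraries. Pax5, a defining B cell gene, was at most 0.0503 CPM in KO libraries of stage III and at 0 in WT ones. The part of these cells in the Cd48 and Cd84 differences was not tested.

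At stage IV no SLAM family gene passed. edgeR called 0 of 8, with 3 at an unadjusted p under 0.05 (Slamf7, Sh2d1a and Cd84), and DESeq2 and limma voom called 0, where edgeR called 0.509% of all tested genes. Slamf7 had 315, 263 and 235 CPM in KO libraries and 210.0, 194 and 168 CPM in WT libraries, and was the gene with higher KO libraries and no overlap (log2 fold change 0.49 ± 0.15, edgeR adjusted p = 0.338). Cd84 had 249, 238 and 243 CPM in KO and 286, 278 and 282 CPM in WT libraries, lower without overlap (log2 fold change -0.24 ± 0.10, edgeR adjusted p = 0.754). Cd244a was the other gene that lay lower without overlap. Such separation was seen for 3 of the 8 genes and for 13% of all tested genes.

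The remaining genes at stage IV had intervals that include 0 or overlapping libraries. Sh2d1a had 148, 110.0 and 111 CPM in KO and 180.1, 171 and 146 CPM in WT libraries (log2 fold change -0.45 ± 0.18, edgeR adjusted p = 0.728). Slamf6 had 3.10, 1.91 and 0.941 CPM in KO and 2.75, 2.03 and 3.23 CPM in WT libraries. Slamf6 did not pass at stage IV, with a 95% interval of -1.08 to 0.14 for the log2 fold change. Cd27, the other gate gene, was lower in KO cells of stage IV (log2 fold change -0.92 ± 0.18, edgeR adjusted p = 0.0329). Its value was -0.47, and not called, when WT replicates 2 and 3 were left out.

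**Figure D3:**
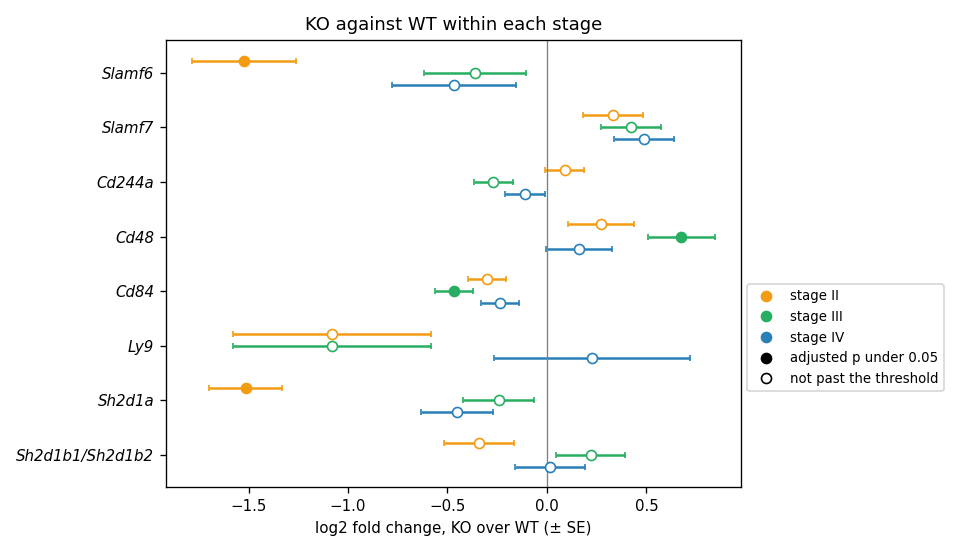
Log2 fold change of KO over WT (x axis, ± SE) for each SLAM family gene at stages II, III and IV, with filled points where the adjusted p was under 0.05. Slamf6 and Sh2d1a at stage II lie furthest left at -1.52 and -1.51, and the filled points at stage III are Cd48 (0.68) and Cd84 (-0.47).

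Averaged over the 3 stages, 5 of the 8 genes differed between genotypes, where 5.45% of all tested genes did. Slamf7 (0.41 ± 0.087, edgeR adjusted p = 0.0083) and Cd48 (0.37 ± 0.10, edgeR adjusted p = 0.0303) were higher in KO cells on the log2 scale. Slamf6 (-0.78 ± 0.16, edgeR adjusted p = 0.00669), Cd84 (-0.34 ± 0.056, edgeR adjusted p = 0.00127) and Sh2d1a (-0.74 ± 0.10, edgeR adjusted p = 2.90e-04) were lower. Slamf7 and Cd84 thus passed in the average with changes of like size and one sign at each stage: 0.33 ± 0.15, 0.42 ± 0.15 and 0.49 ± 0.15 for Slamf7 and -0.30 ± 0.10, -0.47 ± 0.10 and -0.24 ± 0.10 for Cd84 at stages II, III and IV. Slamf7 had 369, 300.0 and 309 CPM in KO and 306, 254 and 217 CPM in WT libraries of stage II, and 257, 229.8 and 211 CPM in KO and 231, 191 and 166 CPM in WT libraries of stage III. Within each genotype and stage, Slamf7 was highest in replicate 1. The calls of Slamf7, Cd84, Slamf6 and Sh2d1a in the average held in all 18 fits that left out 1 library. The Cd48 call held in 4 of 18, without KO stage III replicate 1 or 2, KO stage IV replicate 2 or KO stage IV replicate 3, and the log2 fold change ranged over 0.32 to 0.44. Without the few-gene libraries of KO stage III, Slamf7 (0.34) and Cd48 (0.17) were not called. With WT replicates 2 and 3 left out, none of the 5 was called, with -0.76 for Slamf6, 0.31 for Slamf7, 0.41 for Cd48, -0.27 for Cd84 and -0.65 for Sh2d1a. Cd244a (-0.10 ± 0.057), Ly9 (-0.65 ± 0.28) and Sh2d1b1/Sh2d1b2 (-0.035 ± 0.10) did not pass.

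Whether the genotype difference itself depended on stage was tested directly. The Sh2d1a difference was 1.27 ± 0.26 higher on the log2 scale at stage III than at stage II (edgeR, adjusted p = 0.084) and 1.06 ± 0.26 higher at stage IV than at stage II (edgeR, adjusted p = 0.143). For Slamf6 these values were 1.16 ± 0.36 (edgeR, adjusted p = 0.328) and 1.05 ± 0.41 (edgeR, adjusted p = 0.5). In edgeR 0 of 8 genes passed in any of the 3 comparisons of stages. At an unadjusted p under 0.05 there were 4 for stage III minus II, 1 for IV minus III and 2 for IV minus II, and DESeq2 called 1, 0 and 1. edgeR called 0.0494%, 0.0283% and 0.212% of all tested genes in these comparisons. A genotype difference of Slamf6 and Sh2d1a particular to stage II was therefore not shown by the fit reported here. It depended on the settings, with DESeq2 calling the III minus II (1.28) and IV minus II (1.08) differences of Sh2d1a (DESeq2, adjusted p = 8.75e-04 and 0.00965). Without the low count filter, edgeR called both differences for Sh2d1a (1.23 and 1.02, adjusted p = 0.00107 and 0.00563) and for Slamf6 (1.12 and 1.01, adjusted p = 0.0186 and 0.0351), beside 0.862% and 4.97% of the 33645 genes tested in that fit. Without KO stage III replicate 2, edgeR called 4, 2 and 1 of the 8 genes in the III minus II, IV minus III and IV minus II comparisons, beside 15%, 15% and 0.38% of all genes tested in that fit.

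Along maturation of WT cells, Slamf6 changed more than any other SLAM family gene. It had 64.5, 71.4 and 61.3 CPM at stage II, 41.8, 35.9 and 29.6 CPM at stage III and 2.75, 2.03 and 3.23 CPM at stage IV. The 3 stages did not overlap. The fall at stage IV was 23.4-fold against stage II (log2 fold change -4.55 ± 0.31, edgeR adjusted p = 3.02e-08) and 13.3-fold against stage III (log2 fold change -3.74 ± 0.30, edgeR adjusted p = 1.11e-06). For stage III against II the log2 fold change was -0.81 ± 0.26 and did not pass (edgeR, adjusted p = 0.127). DESeq2, limma voom and the fit without KO stage IV replicate 3 called it. With WT replicates 2 and 3 left out, the fall against stage II was called, and that against stage III (-3.91) was not (edgeR, adjusted p = 0.0687).

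Cd48 went the other way. It had 696, 666 and 663 CPM at stage II, 819, 775 and 765 CPM at stage III and 1089, 1009 and 966 CPM at stage IV, each stage above the one before without overlap. It was 1.60-fold higher at stage IV than at stage II (log2 fold change 0.68 ± 0.17, edgeR adjusted p = 0.01), while the steps of III against II (0.29 ± 0.17) and IV against III (0.38 ± 0.17) did not pass. With WT replicates 2 and 3 left out, the difference of stage IV over II was 0.92 and was not called. Sh2d1a was highest at stage III, and was lower at stage IV than at stage III (log2 fold change -0.70 ± 0.18, edgeR adjusted p = 0.0435). That call held in 4 of 18 fits that left out 1 library (without WT stage II replicate 1, KO stage III replicate 1 or 2, or KO stage IV replicate 3), and the value ranged over -0.75 to -0.62. Without WT replicates 2 and 3 it was -0.66 and was not called (edgeR, adjusted p = 1).

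In counts, 2 of the 8 genes were called in WT stage IV against II (1 higher, 1 lower), where 15.1% of all tested genes were. For IV against III 2 were called, both lower, where 3.17% of all genes were called in either direction and 2.41% lower. For III against II edgeR called 0, with 2 at an unadjusted p under 0.05, DESeq2 and limma voom called 1 each, and edgeR called 2.97% of all tested genes. Cd244a held a narrow range in WT cells, from 621 CPM at its lowest to 689.6 CPM at its highest of 9 libraries, with a 95% interval of -0.051 to 0.34 for the log2 fold change of stage IV over II. The interval was -0.20 to 0.17 for Cd84, -0.65 to -0.060 for Slamf7 and -0.25 to 0.44 for Sh2d1b1/Sh2d1b2. T cell marker sums moved with stage as well, with 688 to 1034 CPM at stage II, 311 to 685 CPM at stage III and 107 to 241 CPM at stage IV in WT libraries. Cd28 made up most of these sums, with means of 558, 488 and 143 CPM. Cd3d had means of 134, 12.1 and 4.08 CPM, while Cd4 was at most 0.670 CPM and Cd8a at most 0.325 CPM in any WT library. The 8 ILC1 marker genes likewise summed to 656 to 1266, 48.4 to 61.0 and 24.3 to 28.9 CPM at these stages. T cells also express Slamf6 and Sh2d1a, and the part of such cells in the fall of these genes was not tested.

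In KO cells, SAP RNA was lowest at stage II. Sh2d1a had 80.6, 87.1 and 74.5 CPM at stage II, 250.5, 163 and 188 CPM at stage III and 148, 110.0 and 111 CPM at stage IV. It rose at stage III against stage II (log2 fold change 1.58 ± 0.18, edgeR adjusted p = 3.72e-05), fell at stage IV against stage III (-0.91 ± 0.18, edgeR adjusted p = 0.00292) and was still higher at stage IV than at stage II (0.67 ± 0.18, edgeR adjusted p = 0.0177). The rise held in all 18 fits that left out 1 library, and the call against stage II at stage IV was lost without KO stage II replicate 1 (0.65) or 3 (0.61) or KO stage IV replicate 1 (0.51). Without the few-gene libraries the difference of stage IV against III was -0.40 and was not called.

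Slamf6 fell at stage IV in KO cells as in WT cells. Its log2 fold change in KO cells was -3.84 ± 0.31 against stage III (edgeR, adjusted p = 4.35e-07) and -3.49 ± 0.30 against stage II (edgeR, adjusted p = 2.92e-07). Cd48 was higher in KO cells at stage III (0.70 ± 0.17, edgeR adjusted p = 0.0134) and stage IV (0.57 ± 0.17, edgeR adjusted p = 0.0278) than at stage II. The EAT-2 feature Sh2d1b1/Sh2d1b2 was also higher at stage III than at stage II (0.70 ± 0.18, edgeR adjusted p = 0.0182), and Cd244a lower (-0.34 ± 0.10, edgeR adjusted p = 0.0396). Without the few-gene libraries of KO stage III these 3 differences between stages III and II were 0.12 for Cd48, 0.13 for Sh2d1b1/Sh2d1b2 and -0.23 for Cd244a, and none was called.

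The stage III against II call of Cd48 in KO cells was also lost without any 1 of KO stage II replicates 1 (0.67), 2 (0.71) and 3 (0.73) or KO stage III replicates 1 (0.60) and 3 (0.55). That of Sh2d1b1/Sh2d1b2 was lost without KO stage II replicate 1 (0.65) or 2 (0.69) or KO stage III replicate 1 (0.64) or 3 (0.51). The Cd244a call held in 2 of 18 such fits, those without WT stage II replicate 1 or KO stage III replicate 2. The stage IV against II call of Cd48 held in 10 of 18, with values of 0.44 to 0.64, and was lost without any 1 of KO stage II replicates 1, 2 and 3, KO stage IV replicates 1 and 2, WT stage III replicates 2 and 3 and WT stage IV replicate 2. In counts, 4 of the 8 genes were called for KO stage III against II (10.1% of all tested genes), 2 for IV against III (17.7%) and 3 for IV against II (14.9%).

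Ly9, a self-binding receptor also known as CD229, varied widely between libraries of one group. At stage II it had 201, 64.7 and 70.3 CPM in KO and 313, 269 and 130.0 CPM in WT libraries, and at stage III 58.0, 204 and 48.8 CPM in KO and 259, 234 and 202 CPM in WT libraries. At stage IV it had 99.2, 217 and 197 CPM in KO and 159, 189.9 and 82.7 CPM in WT libraries. The genotypes overlapped at all 3 stages. The highest library of a group was up to 4.18-fold above the lowest for Ly9, against at most 1.59-fold for Slamf7, Cd244a, Cd48, Cd84, Sh2d1a and Sh2d1b1/Sh2d1b2, and 3.30-fold for Slamf6, at its lowest level. The log2 fold changes of Ly9 were -1.08 ± 0.50 at stage II (edgeR, adjusted p = 0.543), -1.08 ± 0.50 at stage III (edgeR, adjusted p = 0.161) and 0.22 ± 0.49 at stage IV (edgeR, adjusted p = 1). The stage IV value changed sign without WT stage IV replicate 3 (-0.063) or KO stage IV replicate 2 (-0.030), and without KO stage III replicate 2 the average over stages was called (-0.90, edgeR adjusted p = 0.0199). Without the low count filter, edgeR called Ly9 lower at stage II (-1.05, adjusted p = 3.68e-06), at stage III (-1.10, adjusted p = 5.12e-07) and in the average (-0.65, adjusted p = 1.50e-07), where 1.85%, 5.77% and 4.02% of all genes tested in that fit were called.

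The 3 genes with the pattern over 18 libraries most like that of Ly9 were Pgd, a pentose phosphate pathway enzyme (Pearson r of log2 CPM = 0.97), the co-chaperone gene Dnajc7 (0.96) and Ipp (0.95). In KO stage III, where Ly9 was spread most, Pgd had 41.8, 110.3 and 45.4 CPM and Dnajc7 had 69.9, 224 and 49.5 CPM, both high in replicate 2 as Ly9 was. In KO stage II the same genes had 129.7, 58.2 and 53.1 CPM and 204, 97.6 and 90.7 CPM, high in replicate 1 as Ly9 was. These genes were picked for their likeness to Ly9 over these libraries, so that they are low where Ly9 is low follows from the choice.

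**Figure D4:**
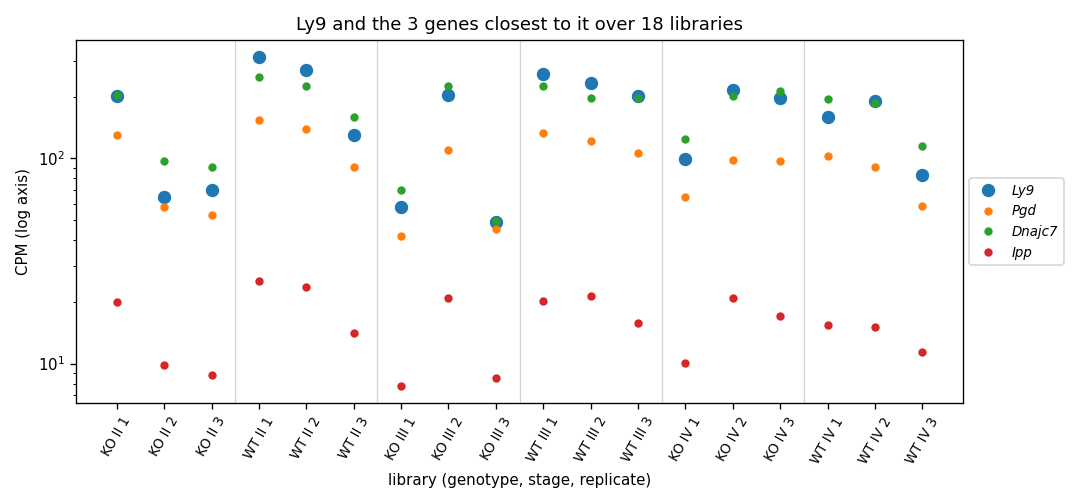
CPM (log axis) of Ly9 and of the 3 genes most like it, Pgd, Dnajc7 and Ipp, in each of 18 libraries, ordered by stage with KO left of WT. The 3 genes were chosen for this likeness, and all 4 are low in the same libraries, such as KO stage III replicates 1 and 3, and Ly9 spans 6.42-fold from its lowest to its highest library.

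The same measure was taken for the other genes over 18 libraries, which share stage and genotype. The gene most like Slamf6 was Krtcap3 (r = 0.98), followed by Ctss, which encodes cathepsin S (0.97), and Kbtbd11 (0.96). Those most like Cd48 were Ifitm10 (0.95), the chemokine gene Ccl5 (0.95) and Atp1b3 (0.94). For Slamf7 the first 2 were Ctsa (0.92) and Sesn1 (0.89), and for Sh2d1a the first 3 were Gm15518 (0.92), Trdj1 (0.91) and Abcg2 (0.91). Cd244a was most like Tdrkh (0.92), Bud13 (0.92) and Zfp870 (0.91), and Cd84 most like the adaptor gene Lax1 (0.93), Sept4 (0.92) and Dpysl5 (0.92). For Sh2d1b1/Sh2d1b2 they were Ybx3 (0.92), Sugt1 (0.91) and Mien1 (0.91). No SLAM family gene was among the 3 genes most like another. Between the members, r ranged from -0.66 (Slamf7 and Cd84) to 0.69 (Sh2d1a and Sh2d1b1/Sh2d1b2).

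Slamf6 and Cd48 lie in one gene cluster and moved in opposite directions with stage, and at WT stage IV against II edgeR called none of the 17 tested genes around them that are not members. Of 34 features listed within 250 kb of the receptor cluster, 28 are not members and 17 of these were tested. In WT stage IV against II, edgeR called 0 of the 17, with 2 at an unadjusted p under 0.05, and DESeq2 called 0, where edgeR called 15.1% of all tested genes. In the 3 comparisons of KO with WT, edgeR likewise called 0 of 17 at each stage, with 1, 5 and 0 at an unadjusted p under 0.05, and DESeq2 called 0, 1 and 0 at stages II, III and IV, where edgeR called 1.46%, 7.9% and 0.509% of all tested genes. The single call among them over 10 comparisons of groups was F11r, an adhesion molecule gene, in KO stage IV against III. Cd84, the nearest member to Slamf6, had a log2 fold change of -0.016 ± 0.10 in WT stage IV over II. Vangl2, a planar cell polarity gene and the next tested gene beyond Slamf6, had 6, 6 and 5 counts at stage IV and 123, 8 and 1 at stage II in WT libraries (log2 fold change -2.99 ± 1.36, edgeR adjusted p = 0.164). Slamf1, between Cd48 and Cd84, had 5, 0 and 2 counts at stage IV and 23, 13 and 15 at stage II (-2.87 ± 1.29, edgeR adjusted p = 0.157).

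**Figure D5:**
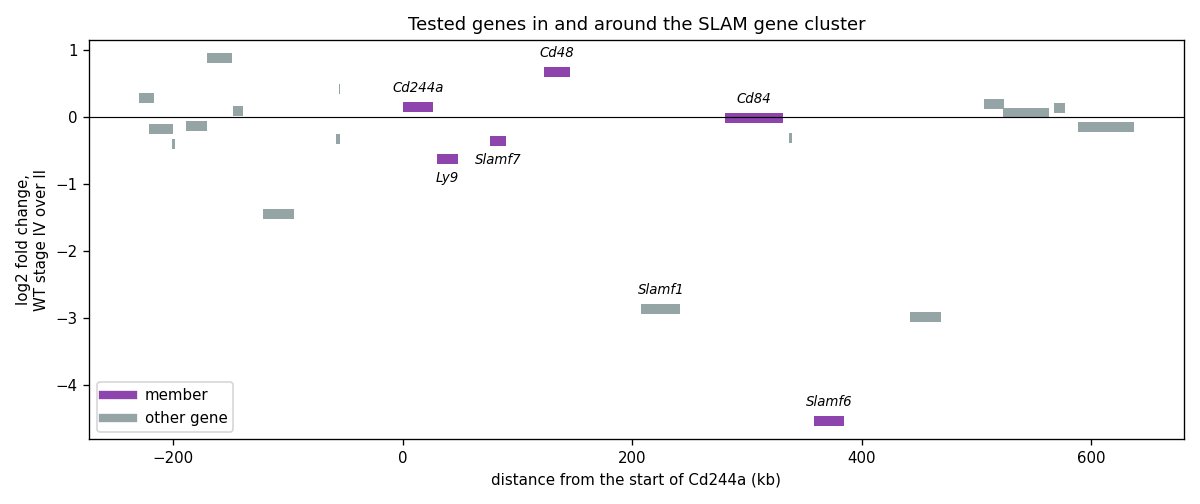
Log2 fold change of WT stage IV over II (y axis) for each tested gene within 250 kb of the SLAM receptor cluster, at its distance from the start of Cd244a (x axis, kb). Slamf6 (-4.55) and Cd48 (0.68) passed the test, and none of the 17 other genes did, including Slamf1 and Vangl2, which had few counts.

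Among relatives of the family, Cd2, whose product binds CD48, was lower in KO cells of stage II. It had 606, 683 and 611 CPM in KO and 924, 1064 and 1047 CPM in WT libraries (log2 fold change -0.68 ± 0.15, edgeR adjusted p = 0.0277). Its stage II value was -0.32 and was not called with WT replicates 2 and 3 left out. At stages III and IV it did not pass, with -0.14 ± 0.15 and -0.47 ± 0.15. Slamf1 and Slamf8 were near the limit of detection. Slamf8 had 96, 14 and 0 counts in KO and 1, 0 and 1 counts in WT libraries of stage III, which edgeR called (edgeR, adjusted p = 0.0446) and for which DESeq2 gave no adjusted p. Without the few-gene libraries or without WT replicates 2 and 3, edgeR did not call it. Slamf9 did not reach the level needed for testing.

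Of 25 genes that act below SLAM receptors, 1 was called at stage II, 3 at stage III and 1 at stage IV between KO and WT, or 4%, 12% and 4%, beside 1.46%, 7.9% and 0.509% of all tested genes. The stage II call was Fyn, the kinase that SAP binds. Fyn had 144, 142 and 135 CPM in KO and 243, 238 and 238 CPM in WT libraries, without overlap (log2 fold change -0.78 ± 0.18, edgeR adjusted p = 0.0348). Ptpn6, which encodes the phosphatase SHP-1, was higher in KO cells at stages III and IV. It had 493, 561 and 406 CPM in KO and 314, 332 and 304 CPM in WT libraries of stage III, and 513, 529 and 555 CPM in KO and 265, 300.4 and 269 CPM in WT libraries of stage IV. Its log2 fold change was 0.78 ± 0.10 (edgeR, adjusted p = 3.22e-04) at stage III and 0.91 ± 0.10 (edgeR, adjusted p = 1.92e-04) at stage IV. At stage II it was 0.39 ± 0.10 and missed the threshold (edgeR, adjusted p = 0.0759). Inpp5d, which encodes the lipid phosphatase SHIP-1 (-0.54 ± 0.15), and the ubiquitin ligase gene Cbl (-1.10 ± 0.23) were lower in KO cells of stage III, both with the lowest values in the few-gene libraries. Averaged over stages, Ptpn6 and the phospholipase gene Plcg2 were higher and Lck, Fyn, Dok2, Cbl and Nck1 lower, so 7 of 25 (28%) passed, beside 5.45% of all tested genes. Ptpn6 was, with WT replicates 2 and 3 left out, the one of these 7 still called in the average (0.80, edgeR adjusted p = 0.0219). In that fit Fyn at stage II (-0.57), Ptpn6 at stages III (0.84) and IV (1.02), and Inpp5d (-0.47) and Cbl (-1.04) at stage III were not called. Leaving out the few-gene libraries leaves 1 KO library of stage III. The values at that stage were then 0.79 for Ptpn6, -0.22 for Inpp5d and -0.61 for Cbl, and Inpp5d and Cbl were not called. The median log2 fold change of the 25 genes was -0.044, -0.25 and -0.060 at stages II, III and IV, beside -0.0063, 0.016 and 0.016 over all tested genes.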

How the data were processed

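RNA was measured in 18 libraries of splenic NK cells, 3 for each of 2 genotypes at 3 stages. Per the labels' protocols, RNA came from cells of pooled spleens kept in Trizol. STAR 2.0.4, Subread and featureCounts 1.4.5 are named in the submitters' processing notes. The build is not given, nor are read type and strandedness, in the sources used here. The listed positions overlapped the GENCODE M21 (GRCm38) gene of the same ID for 40158 of 40254 IDs. The deposited files give a raw count, CPM and RPKM per gene and library. The deposited CPM values equal the count scaled to the library total, and the deposited RPKM values equal CPM per kilobase of listed exon length (largest relative differences 5.0e-15 and 6.5e-14). Precision depends on the number of counts and on the spread between libraries of a group. Replicates are labelled samples whose assignment to the experiments is not given. The p-values weigh differences between groups against the spread between these samples.

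Counts were fitted with edgeR 4.0.16 (R 4.3.3): filterByExpr by group, TMM, a quasi-likelihood fit over 6 groups and 18 libraries, 13 contrasts, and Benjamini-Hochberg adjustment over the 14156 tested of 41388 listed genes, with a threshold of 0.05. SE was taken as |log2 fold change| over the root of the F statistic, and 95% intervals are 1.96 SE to each side. All 8 members passed the filter. The members and gene lists were chosen with earlier results of these data known. Named genes are the members, list and locus genes called in the comparison described, Eomes, and the 3 genes with the highest Pearson r to each member, plus gate genes and relatives. Alternatives used DESeq2 1.42.0 and limma 3.58.1 among others. On simulated counts for KO against WT at stage II over 14156 genes, 67.3% and 68% of genes with true log2 changes of -2 and 2 were called, 44% and 40.8% at -1 and 1, and 3 of 13669 unchanged genes. A gene among those most like a member is not reported here.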

Additional observations from a re-analysis of the deposited data

How the results depend on the processing

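Counts of SLAM family genes called by edgeR at an adjusted p under 0.05 were recomputed under 11 planned settings (10 for the average over stages) and 18 fits that each left out 1 library. Without WT replicates 2 and 3 (1 WT library per stage left), the counts were 0 for KO against WT at stages II and III and in the average, 0 for WT stage IV against III, and 1 each for WT IV against II and for KO III and IV against II. Without the few-gene libraries they were 0 for KO against WT at stage III, 3 in the average, 1 for KO stage III against II, 1 for KO stage IV against III and 1 for the stage IV minus II difference. With the groups of each contrast alone they were 0 for KO against WT at stage III, 2 for WT stage III against II, 4 for WT stage IV against II, 1 for KO stages III against II and IV against III, and 1 for stage IV minus II. DESeq2 gave 4 for KO against WT at stage III and 1 each for WT stage III against II and the III minus II and IV minus II differences. limma voom gave 1 for WT stage III against II. voom with sample quality weights gave 2 for KO against WT at stage IV, 2 for WT stage III against II, 4 for WT stage IV against II, 5 for KO stage IV against II, and 1 each for III minus II and IV minus II. Without the low count filter the counts were 1 for WT stage III against II and 2, 1 and 3 for III minus II, IV minus III and IV minus II. In that fit 0.862% and 4.97% of the genes tested were called for III minus II and IV minus II. The share of all tested genes called also changed with the settings, and it is not given here for each count. The counts alone are therefore no result about the SLAM family genes. The cause of these shifts was not tested.

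Leaving out 1 library gave 2 calls at stage II, 0 to 6 at stage III, 0 at stage IV and 4 to 6 in the average for KO against WT. It gave 0 to 1, 1 to 2 and 2 calls in WT cells for stages III over II, IV over III and IV over II, and 1 to 4, 2 to 6 and 1 to 4 calls for the same comparisons of KO stages. For III minus II, IV minus III and IV minus II it gave 0 to 4, 0 to 2 and 0 to 1. The fit without KO stage III replicate 2 gave 6 calls at stage III, beside 30.6% of the genes tested in that fit. It gave 4, 2 and 1 for the 3 differences between stages, beside 15%, 15% and 0.38%. Directions that turned were all of uncalled log2 fold changes. Sh2d1b1/Sh2d1b2 turned to -0.36 at stage III without the few-gene libraries. At stage IV it turned to -0.0091 without the filter, -0.0052 with voom, -0.070 with weights and -0.051 without WT replicates 2 and 3, and it ranged over -0.16 to 0.11 with 1 library left out. Its average was 0.0039 without the libraries rich in low counts and -0.099 to 0.039 with 1 library left out. Cd244a turned to 0.0051 in the average and Sh2d1a to 0.084 in WT stage IV against II without WT replicates 2 and 3. Cd84 in WT stage IV against II was 0.10 there, 0.012 without the filter, and -0.033 to 0.047 with 1 library left out, and Ly9 at KO stage IV ranged over -0.063 to 0.49.

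With the replicate number as a block, each count of calls stayed within 1.5 times of its value, and Slamf7 was called at KO stage III (0.43) and in WT stage IV against II (-0.35). Same-numbered KO and WT libraries of a stage deviated together, with r over 0.1, in 3 of 9 pairs (-0.099 to 0.17), and in 14 of 18 same-numbered pairs of stages within a genotype, against 7 of 36 pairs with different numbers. Not every pair was over 0.1, so the numbers were not taken as pairing. Of 18 libraries, 17 correlated better on average with libraries of their own number than with those of other numbers. All pairs of libraries from different groups entered here, also those of KO with WT. It is a hint from the data and not the design. Depth limits Slamf6 at stage IV, where 23 counts were the fewest in a library. A listed feature that merges exons of both EAT-2 genes limits Sh2d1b1/Sh2d1b2, and 3 libraries a group limit all tests.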
